A study of Mus musculus with 12 samples.

Results

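The genes described here encode the transferases of phase II metabolism, in which a small molecule is joined to glucuronic acid, sulfate or glutathione. They were chosen by symbol alone: every gene whose symbol starts with Ugt1, Ugt2, Ugt3, with Sult and a digit, or with Gst followed by a, k, m, o, p, t or z and a digit, and that has an Affymetrix probe set annotated to it and to no other gene. Of 18193 genes with such a probe set, 43 met the rule: 10 Ugt genes (8 Ugt2 and 2 Ugt3), 13 Sult genes (6 Sult1, 3 Sult2 and 1 each of Sult3, Sult4, Sult5 and Sult6) and 20 Gst genes (3 alpha, 1 kappa, 7 mu, 2 omega, 2 pi, 4 theta and 1 zeta). Where a gene had several probe sets, the one with the highest mean over the 12 arrays was used. After the filter on low signal that was applied to all genes, 33 of the 43 stayed among the 12760 genes tested, namely 8 Ugt, 7 Sult and 18 Gst genes. Microarrays were run on total RNA from the liver of BALB/c mice, with 3 mice in each of 4 groups, in a study titled for acute autoimmune hepatitis. The group labelled WT holds the TGF-β1+/+ littermate controls. The group labelled TGFB KO lacks TGF-β1 (TGF-β1-/-), and the group labelled IFNko TGFB1 KO lacks both TGF-β1 and IFN-γ (TGF-β1-/-/IFN-γ-/-). The group labelled INFko TGFB+ is named for the loss of interferon gamma with TGF-β1 kept, and its labels do not say whether 1 or 2 intact Tgfb1 copies were present. The labels give no age, sex, treatment or allele for any group, and all 4 groups share the BALB/c background.

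Glucuronosyltransferases of the endoplasmic reticulum add glucuronic acid from UDP-glucuronate to bilirubin, bile acids, steroids and drugs. Cytosolic sulfotransferases add sulfate from PAPS to phenols, steroids, bile acids and thyroid hormone. Glutathione transferases join glutathione to electrophiles such as lipid peroxidation products and epoxides. All of these reactions make their substrates more soluble and prepare them for export in bile or urine, and the hepatocyte is the main cell in which they take place.

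The probe set for the targeted gene Tgfb1 was lower in both groups labelled as lacking it, with mean signals of 319 ± 184 in WT, 68.1 ± 21.2 in TGFB KO, 188 ± 29.5 in INFko TGFB+ and 40.2 ± 13.9 in IFNko TGFB1 KO (SD, n = 3). The Ifng probe set read 23.3, 25.9 and 5.95 in WT, 85.9, 94.3 and 202 in TGFB KO, 7.56, 1.06 and 7.45 in INFko TGFB+ and 83.9, 54.3 and 44.6 in IFNko TGFB1 KO, so it was higher in IFNko TGFB1 KO than in its INFko TGFB+ control (adjusted p = 0.00243, limma), and a signal from it does not check the label of an interferon gamma knockout unless the probes lie in the deleted part, which is not given in the sources used here. The median signal was 61.3 on array IFNko TGFB1 KO 1 against 33.8 to 42.6 on the other 11 arrays, and its rank correlations to them were 0.754 to 0.809, against 0.816 to 0.912 among those 11. Xist and Eif2s3y levels placed 1 female mouse in each group. Without array IFNko TGFB1 KO 1, 21 of the 33 tested genes passed in the comparison of IFNko TGFB1 KO with INFko TGFB+.

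Loss of Tgfb1 went with a broad fall of these enzymes. In TGFB KO against WT, 18 of the 33 tested genes fell and 1, Gstp1, rose at an adjusted p under 0.05 (limma, Benjamini-Hochberg adjustment over 12760 genes), which is 57.6% of them where 24.1% of all genes tested were called, 11.9% lower and 12.2% higher. In IFNko TGFB1 KO against INFko TGFB+, 21 of 33 fell and 0 rose, with 4 of 33 above 0, which is 63.6% of them where 25.8% of all genes were called, 13.1% lower and 12.7% higher. The median log2 fold change of the 33 genes was -0.93 in the first comparison and -1.39 in the second, beside -0.06 and -0.01 for all genes tested. At least a 2-fold fall was called for 14 genes in the first comparison and for 17 in the second. A total of 16 genes fell in both comparisons, which share no arrays but share the estimate of spread. These are 88.9% of the 18 and 76.2% of the 21, and for all genes the 962 that fell in both are 63.1% and 57.5% of those that fell in each. The count of calls in TGFB KO against WT was 12 without array TGFB KO 1, and 14 to 16 without any 1 of the other 5 arrays of this comparison.

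**Figure D1:**
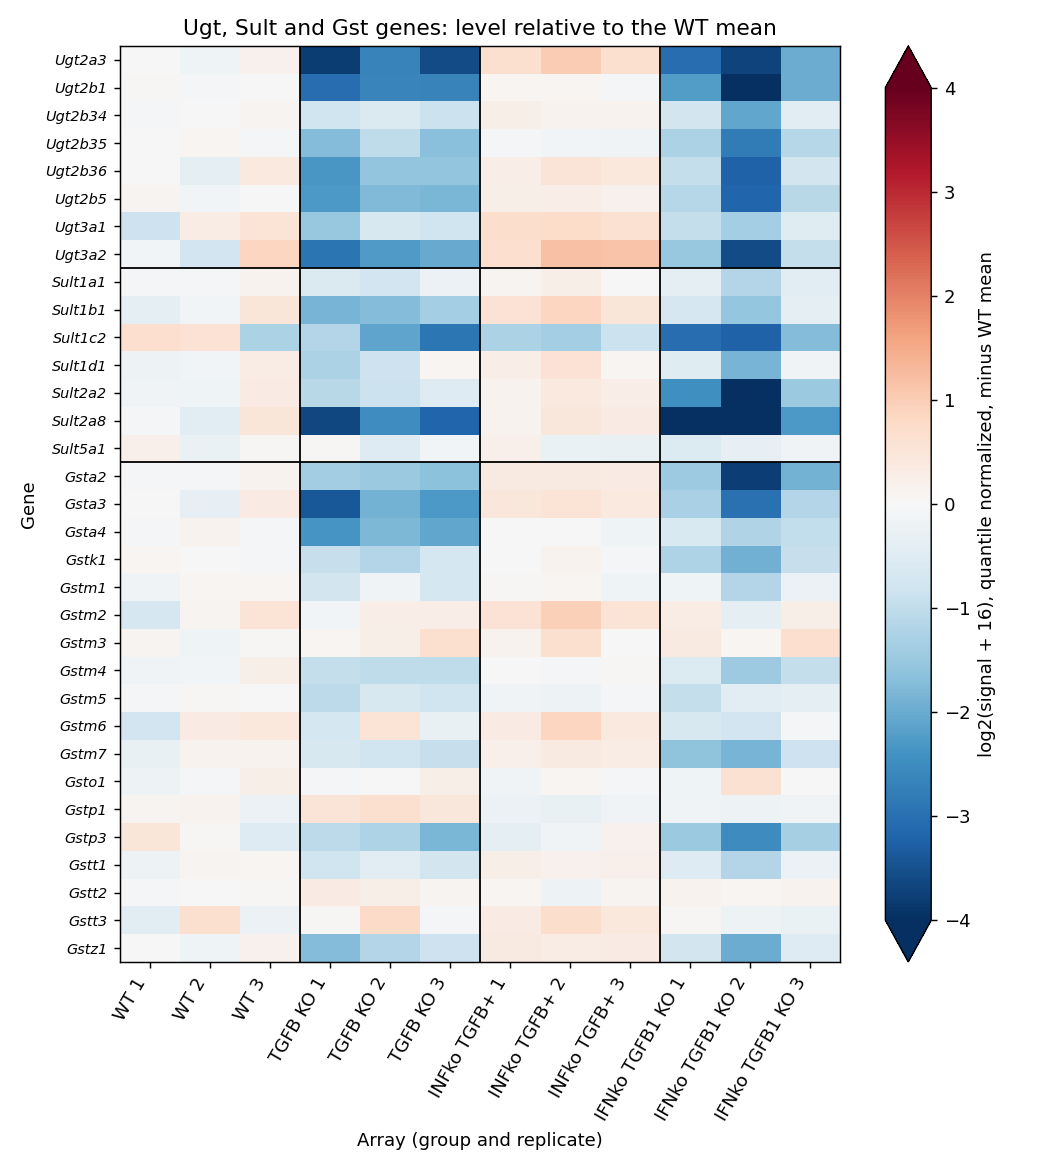
Level of each of the 33 tested genes (vertical axis) on each of the 12 arrays (horizontal axis), as log2(signal + 16) after quantile normalization minus the mean of the 3 WT arrays, with blue below and red above the WT mean. Most Ugt genes and the Gsta genes are blue on all 6 Tgfb1-deficient arrays, array IFNko TGFB1 KO 2 is the darkest column, and Gstp1 is plainly red on the 3 TGFB KO arrays alone.

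The heat map of levels by array shows the split between the 6 Tgfb1-deficient arrays and the other 6. The median of the 33 genes relative to the WT mean was -1.06, -0.85 and -0.83 on the 3 TGFB KO arrays, between 0.17 and 0.28 on the INFko TGFB+ arrays, and -0.75, -1.85 and -0.51 on the IFNko TGFB1 KO arrays. Array IFNko TGFB1 KO 2 held the lowest of the 12 values for 20 of the 33 genes, against 12.5% of all genes tested. It held the lowest value of its group for 29, a count not made over all genes. Without this array, 20 of the 33 genes passed in IFNko TGFB1 KO against INFko TGFB+. Leaving it out moved 8 of the 21 called falls by more than 1.5 times, each toward a smaller fall and each still past the threshold, namely those of Ugt2b1, Ugt2b5, Ugt2b36, Ugt3a2, Sult2a2, Sult2a8, Gsta2 and Gsta3.

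**Figure D2:**
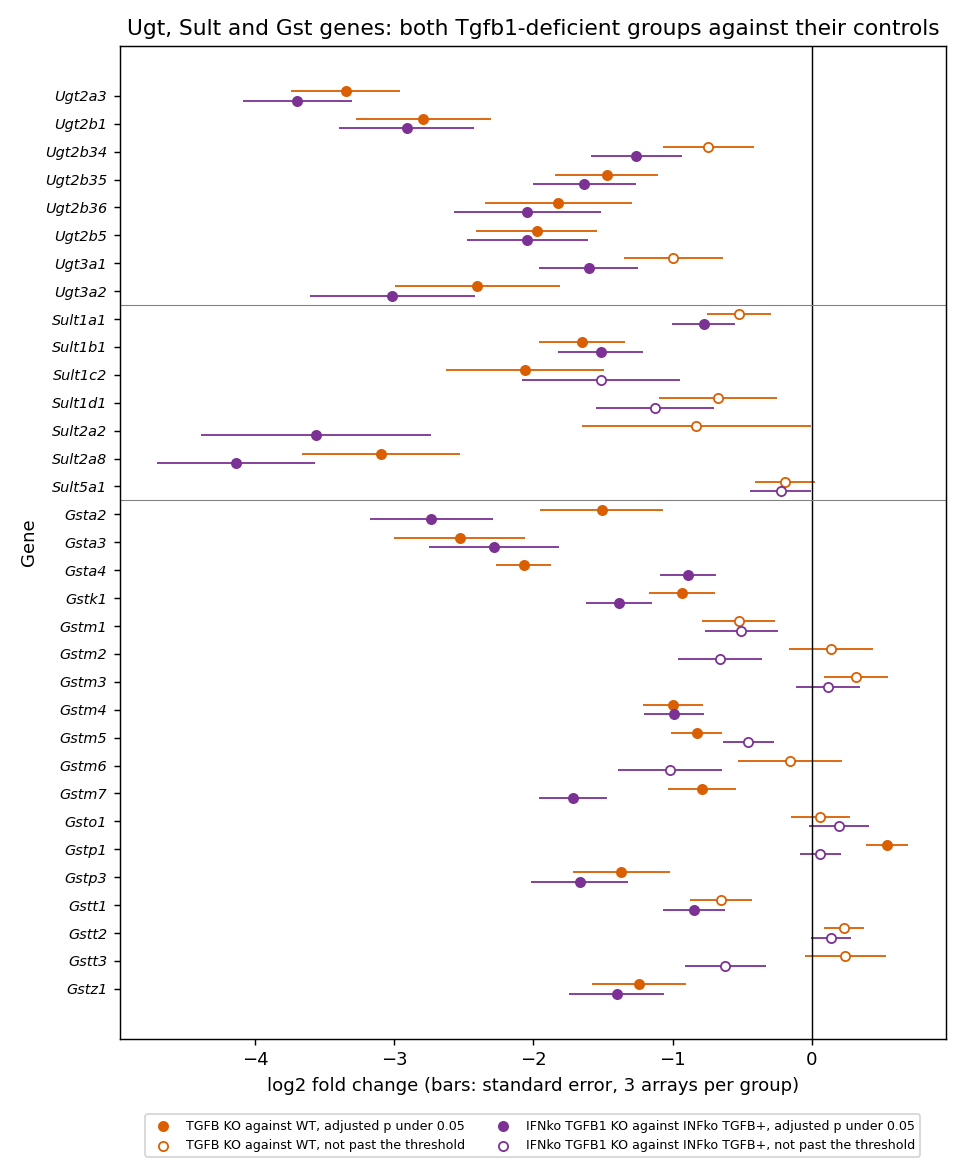
log2 fold change (horizontal axis, on the log2(signal + 16) scale) of the 33 tested genes (vertical axis), in orange for TGFB KO against WT and in purple for IFNko TGFB1 KO against INFko TGFB+, with standard errors from limma over 3 arrays per group and filled points where the adjusted p was under 0.05. All 8 Ugt genes lie left of 0 in both comparisons, and Gstp1 is the only filled point to the right of 0.

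Among the glucuronosyltransferases, 6 of 8 fell in TGFB KO and 8 of 8 in IFNko TGFB1 KO. The median log2 fold change of the 8 was -1.90 and -2.04. Ugt2a3, an enzyme of liver and intestine that conjugates bile acids, gave signals of 373, 331 and 423 in WT, 11.9, 42.1 and 15.8 in TGFB KO, 605, 812 and 609 in INFko TGFB+ and 51.6, 13 and 83.5 in IFNko TGFB1 KO. No Tgfb1-deficient array came near the 6 others, and the lowest readings lay at a level where the pseudocount of 16 shrinks a ratio. Its log2 fold change was -3.35 ± 0.39 (SE; adjusted p = 0.000121) in TGFB KO against WT and -3.70 ± 0.39 (SE; adjusted p = 0.000103) in IFNko TGFB1 KO against INFko TGFB+. Ugt2b1, which acts on steroids and drugs, read 3172, 3191 and 3216 in WT and 3325, 3382 and 3179 in INFko TGFB+, a spread of a few percent. It read 356, 475 and 459 in TGFB KO and 565, 137 and 757 in IFNko TGFB1 KO, so that every deficient array was below every control array. The log2 fold changes were -2.79 ± 0.49 (SE; adjusted p = 0.00177) and -2.91 ± 0.49 (SE; adjusted p = 0.00151), a 6.92-fold and a 7.51-fold fall, and the second was -2.13 without array IFNko TGFB1 KO 2.

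Ugt2b5 and Ugt2b36 are further steroid and drug conjugating members of the same chromosome 5 cluster. Ugt2b5 read 4489, 4257 and 4626 in WT, 844, 1236 and 1166 in TGFB KO, 5156, 5082 and 5083 in INFko TGFB+ and 1594, 465 and 1971 in IFNko TGFB1 KO. Ugt2b36 read 5323, 4622 and 7598 in WT, 1083, 1835 and 1874 in TGFB KO, 6812, 7631 and 7583 in INFko TGFB+ and 2317, 582 and 3193 in IFNko TGFB1 KO. Both were lower on every Tgfb1-deficient array than on any control array, and array IFNko TGFB1 KO 2 was the lowest of the 12 for each. The log2 fold changes of Ugt2b5 were -1.98 ± 0.44 (SE; adjusted p = 0.00684) and -2.04 ± 0.44 (SE; adjusted p = 0.00555), and those of Ugt2b36 were -1.82 ± 0.53 (SE; adjusted p = 0.0276) and -2.04 ± 0.53 (SE; adjusted p = 0.0147). The call for Ugt2b36 in TGFB KO was lost without WT 1, WT 3, TGFB KO 1 or TGFB KO 3, at adjusted p of 0.065, 0.0849, 0.102 and 0.0513. Its call in IFNko TGFB1 KO was lost with only the 2 groups of that comparison in the fit (adjusted p = 0.0618). Without IFNko TGFB1 KO 2 the second changes were -1.36 for Ugt2b5 and -1.25 for Ugt2b36. Ugt2b35 fell by 1.47 and 1.64 on the log2 scale, and its call in TGFB KO was lost without TGFB KO 1 (adjusted p = 0.0541). Ugt2b34 fell in IFNko TGFB1 KO (-1.26 ± 0.33, adjusted p = 0.0149), where the call was lost without INFko TGFB+ 1 (adjusted p = 0.0501) and with only the 2 groups in the fit (adjusted p = 0.0709), and gave -0.74 in TGFB KO without passing (adjusted p = 0.125). A second Ugt2b34 probe set gave -0.90 and -1.03 and passed in neither comparison (adjusted p = 0.0984 and 0.0591). Its p-values were adjusted over 27022 probe sets, and those of the first probe set over 12760 genes, so the adjusted values are not like for like. In IFNko TGFB1 KO the unadjusted p was 0.0111 for the second probe set and 0.00251 for the first (limma). The calls therefore do not show that these probe sets disagree. Ugt2b37 and Ugt2b38 of the same cluster lay below the filter, with signals no higher than 18.4 and 28.5 on any array.

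The 8 Ugt2 genes lie next to each other on chromosome 5 with no other coding gene of the RefSeq annotation (GRCm38.p6) between them, and neighbours share much of their sequence. RefSeq promoter windows on GRCm38.p6 are shown for 3 of them, since these genes fell together on both sets of arrays. Each window runs 5′ to 3′ on the gene's strand, from 250 bases before the annotated start to 50 after it. It comes from the C57BL/6J reference, whereas these mice were BALB/c. Capitals mark a match to the C/EBP-like motif TTGCNNAA on either strand. The Ugt2a3 window is chr5:87337146-87337445, the Ugt2b1 window chr5:86926454-86926753 and the Ugt2b5 window chr5:87140291-87140590, all on the minus strand.
Ugt2a3: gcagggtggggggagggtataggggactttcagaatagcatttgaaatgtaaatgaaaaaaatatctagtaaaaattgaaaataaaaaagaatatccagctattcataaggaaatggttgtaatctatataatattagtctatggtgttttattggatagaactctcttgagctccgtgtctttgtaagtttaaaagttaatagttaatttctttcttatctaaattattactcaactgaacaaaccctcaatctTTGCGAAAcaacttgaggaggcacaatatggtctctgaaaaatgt
Ugt2b1: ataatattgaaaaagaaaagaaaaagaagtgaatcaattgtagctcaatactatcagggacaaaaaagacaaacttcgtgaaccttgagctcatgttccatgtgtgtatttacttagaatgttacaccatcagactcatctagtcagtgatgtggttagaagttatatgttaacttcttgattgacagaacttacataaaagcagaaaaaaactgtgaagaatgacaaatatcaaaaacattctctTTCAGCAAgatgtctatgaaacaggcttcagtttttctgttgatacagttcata
Ugt2b5: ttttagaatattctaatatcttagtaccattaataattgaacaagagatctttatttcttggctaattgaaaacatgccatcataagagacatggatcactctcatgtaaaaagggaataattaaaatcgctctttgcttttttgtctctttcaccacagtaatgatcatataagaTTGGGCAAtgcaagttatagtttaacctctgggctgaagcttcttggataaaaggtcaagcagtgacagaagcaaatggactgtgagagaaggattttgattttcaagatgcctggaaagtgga
The first base of the match lies at base 6 after the start in Ugt2a3, and 4 and 74 bases before it in Ugt2b1 and Ugt2b5. Of the 8 Ugt2 genes with a window, 4 held the motif, namely these 3 and Ugt2b36. Over all 43 genes, 38 had at least 1 window, and 10 of the 38 held the motif. By window, 20.4% of 49 held it, beside 10.8% of the 32851 windows of all genes. Such a match is a description of letters and not evidence of binding.

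No Ugt1a gene had a probe set of its own. The Ugt1a genes share their last exons, and 3 probe sets are annotated jointly to 8 of them (Ugt1a1, Ugt1a2, Ugt1a5, Ugt1a6a, Ugt1a6b, Ugt1a7c, Ugt1a9 and Ugt1a10). Ugt1a1 is the bilirubin-conjugating enzyme. These shared probe sets were fitted with all 27022 probe sets above the filter, of which 16.4% were called in TGFB KO against WT (7.58% lower) and 17.5% in IFNko TGFB1 KO against INFko TGFB+ (8.98% lower). One of the 3 read 8906, 9208 and 8837 in WT, 3854, 4887 and 4359 in TGFB KO, 8784, 8644 and 8669 in INFko TGFB+ and 3651, 1613 and 4521 in IFNko TGFB1 KO. The 6 control arrays lay within 8644 to 9208, and the highest of the 6 Tgfb1-deficient arrays was TGFB KO 2, at 4887. All 3 shared probe sets fell in both comparisons. The log2 fold changes were -1.07, -1.05 and -1.62 in TGFB KO (adjusted p = 0.0293, 0.0374 and 0.0199). They were -1.50, -1.40 and -1.71 in IFNko TGFB1 KO (adjusted p = 0.00536, 0.0089 and 0.0149). Which of the 8 genes lost signal cannot be read from them.

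The adjacent genes Ugt3a1 and Ugt3a2 belong to a family whose human enzymes use UDP sugars other than UDP-glucuronate. Ugt3a2 read 475, 289.8 and 993 in WT, 52.5, 94.3 and 114 in TGFB KO, 867, 1247 and 1222 in INFko TGFB+ and 187, 27.0 and 258 in IFNko TGFB1 KO. The WT arrays spread over more than a 3-fold range, and still no Tgfb1-deficient array reached the lowest control. Ugt3a2 changed by -2.40 ± 0.59 (SE; adjusted p = 0.0124) in TGFB KO and -3.01 ± 0.59 (SE; adjusted p = 0.00353) in IFNko TGFB1 KO, and the first call was lost without TGFB KO 1 (adjusted p = 0.0526). The second was -2.23 without IFNko TGFB1 KO 2. Ugt3a1 fell in IFNko TGFB1 KO (-1.60 ± 0.35, adjusted p = 0.00664) and gave -0.99 in TGFB KO (adjusted p = 0.0631), where it passed without WT 1 (-1.41, adjusted p = 0.00893). Its second probe set gave -1.08 and -1.35 and passed in neither.

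The sulfotransferases were less uniform, with 3 of 7 falling in TGFB KO and 4 of 7 in IFNko TGFB1 KO. Sult2a8, a hepatic sulfotransferase that acts on bile acids, fell furthest. Its signals were 1387, 1072 and 2112 in WT, 99.7, 250.2 and 144 in TGFB KO, 1646, 2075 and 1902 in INFko TGFB+ and 97.5, 23.8 and 279.9 in IFNko TGFB1 KO. The highest Tgfb1-deficient reading, on array IFNko TGFB1 KO 3, was well below the lowest control reading, on WT 2. The log2 fold change was -3.09 ± 0.57 (SE; adjusted p = 0.0024) in TGFB KO and -4.13 ± 0.57 (SE; adjusted p = 0.00048) in IFNko TGFB1 KO, an 8.54-fold and a 17.6-fold fall. The second was -3.49 without IFNko TGFB1 KO 2 and -4.90 without IFNko TGFB1 KO 3. The RefSeq table holds 2 promoter windows for Sult2a8, and the more upstream of the pair is given here because this gene had the largest fall in IFNko TGFB1 KO (chr7:14446538-14446837, minus strand, GRCm38.p6; capitals as for the Ugt2 genes, starting 217 bases before the start).
Sult2a8: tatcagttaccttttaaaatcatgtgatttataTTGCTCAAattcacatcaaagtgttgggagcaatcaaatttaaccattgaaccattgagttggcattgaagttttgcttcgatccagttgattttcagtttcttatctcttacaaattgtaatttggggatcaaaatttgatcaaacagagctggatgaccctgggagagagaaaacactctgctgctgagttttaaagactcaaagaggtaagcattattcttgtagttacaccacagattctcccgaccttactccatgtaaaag
The RefSeq gene record of Sult2a8 reaches upstream of the start used here, to base 14446780 inside this window. Sult2a2, which sulfates hydroxysteroids and bile acids, lies on the same chromosome with 4 coding genes between it and Sult2a8. It read 7303, 7948 and 11225 in WT and 4033, 4919 and 6857 in TGFB KO, and these arrays did not overlap, but the fold change did not pass (-0.83 ± 0.82, adjusted p = 0.516). It read 9784, 11038 and 10847 in INFko TGFB+ and 1373, 143 and 3058 in IFNko TGFB1 KO, a fall of 3.56 ± 0.82 on the log2 scale (SE; adjusted p = 0.00847). Within IFNko TGFB1 KO the 3 arrays ran from 143 to 3058. The log2 fold change was -2.24 without IFNko TGFB1 KO 2 and -4.47 without IFNko TGFB1 KO 3, and the fit that used only the 2 groups of this comparison gave an adjusted p of 0.0547. The difference between its 2 Tgfb1 effects was -2.73 ± 1.17 (SE; adjusted p = 0.384) and did not pass.

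In the Sult1 family, Sult1b1, which acts on thyroid hormone, fell in both comparisons (-1.65 ± 0.31, adjusted p = 0.00269, and -1.52 ± 0.31, adjusted p = 0.0042). It read 118, 139 and 223 in WT and 31.4, 34.9 and 50.3 in TGFB KO, without overlap. It read 240.3, 305 and 224 in INFko TGFB+ and 120.3, 44.5 and 122 in IFNko TGFB1 KO. Sult1a1, the main phenol sulfotransferase of liver, read 5554, 6268 and 7365 in WT, 4148, 3546 and 5862 in TGFB KO, 6865, 7192 and 6472 in INFko TGFB+ and 4095, 2492 and 4583 in IFNko TGFB1 KO. By deposited signal, all Tgfb1-deficient arrays but TGFB KO 3 lay below every control array. It passed in IFNko TGFB1 KO (-0.78 ± 0.23, adjusted p = 0.0266) and not in TGFB KO (-0.52 ± 0.23, adjusted p = 0.122). The call for Sult1a1 was lost without IFNko TGFB1 KO 2 or without any 1 of the 3 INFko TGFB+ arrays, at adjusted p of 0.0529 to 0.0949, and with only the 2 groups in the fit (adjusted p = 0.0683). Sult1d1, which sulfates catecholamines, passed in neither comparison (-0.67 and -1.13; adjusted p = 0.287 and 0.0729), while its second probe set gave -1.03 (adjusted p = 0.108) and -1.53 (adjusted p = 0.022). Without IFNko TGFB1 KO 3 the change of Sult1d1 in IFNko TGFB1 KO passed too (-1.46, adjusted p = 0.0306).

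Sult1c2 fell in TGFB KO (-2.06 ± 0.57, adjusted p = 0.0213), although its arrays overlapped. It read 1203, 1172 and 303 in WT, 328, 164 and 86.6 in TGFB KO, 301, 281 and 404 in INFko TGFB+ and 105, 70.1 and 212 in IFNko TGFB1 KO. WT 3 stood far below the other 2 WT arrays, at the level of the INFko TGFB+ group. The call for Sult1c2 was lost without WT 1, WT 2, TGFB KO 2 or TGFB KO 3, at adjusted p of 0.0574 to 0.0841, and without WT 3 the change was -2.69. In IFNko TGFB1 KO it passed without array IFNko TGFB1 KO 3 (-1.98, adjusted p = 0.0284). Sult5a1 read 78.9, 49.7 and 64.1 in WT, 67.2, 37.8 and 57.7 in TGFB KO, 74.9, 48.1 and 47.1 in INFko TGFB+ and 64, 49.6 and 58.1 in IFNko TGFB1 KO, with overlapping groups, and passed in no comparison. The remaining 6 sulfotransferases, Sult1c1, Sult1e1, Sult2b1, Sult3a1, Sult4a1 and Sult6b1, lay below the filter. Sult1e1, the estrogen sulfotransferase, read 0.716 to 39.6. Sult3a1 read 4.82, 0.741 and 17.2 in WT, 4.91, 0.600 and 1.11 in TGFB KO, 4.97, 1.19 and 0.434 in INFko TGFB+ and 3.65, 5.92 and 1.12 in IFNko TGFB1 KO. Sult4a1 read 60.7, 3.17 and 13.7 in WT, 23.8, 3.07 and 4.83 in TGFB KO, 24.9, 5.27 and 3.28 in INFko TGFB+ and 17.4, 3.88 and 27.4 in IFNko TGFB1 KO. Sult6b1 read 7.79, 0.843 and 1.57 in WT, 2.46, 1.79 and 2.31 in TGFB KO, 2.67, 3.39 and 2.45 in INFko TGFB+ and 57.3, 1.10 and 1.37 in IFNko TGFB1 KO. In each of these the groups overlapped and the highest reading came from a single array. Sult2b1, which sulfates cholesterol, read 34.4, 22.3 and 22.6 in WT, 2.03, 2.5 and 3.60 in TGFB KO, 19.6, 3.63 and 5.49 in INFko TGFB+ and 9.82, 24.7 and 10.6 in IFNko TGFB1 KO. The WT and TGFB KO arrays did not overlap, whereas the IFNko TGFB1 KO arrays overlapped with INFko TGFB+ and had the higher mean. With no filter, in TGFB KO against WT, it was the 1 gene of the 10 below the filter that passed (-1.10, adjusted p = 0.0251). At such signals a probe set reads close to its background.

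**Figure D3:**
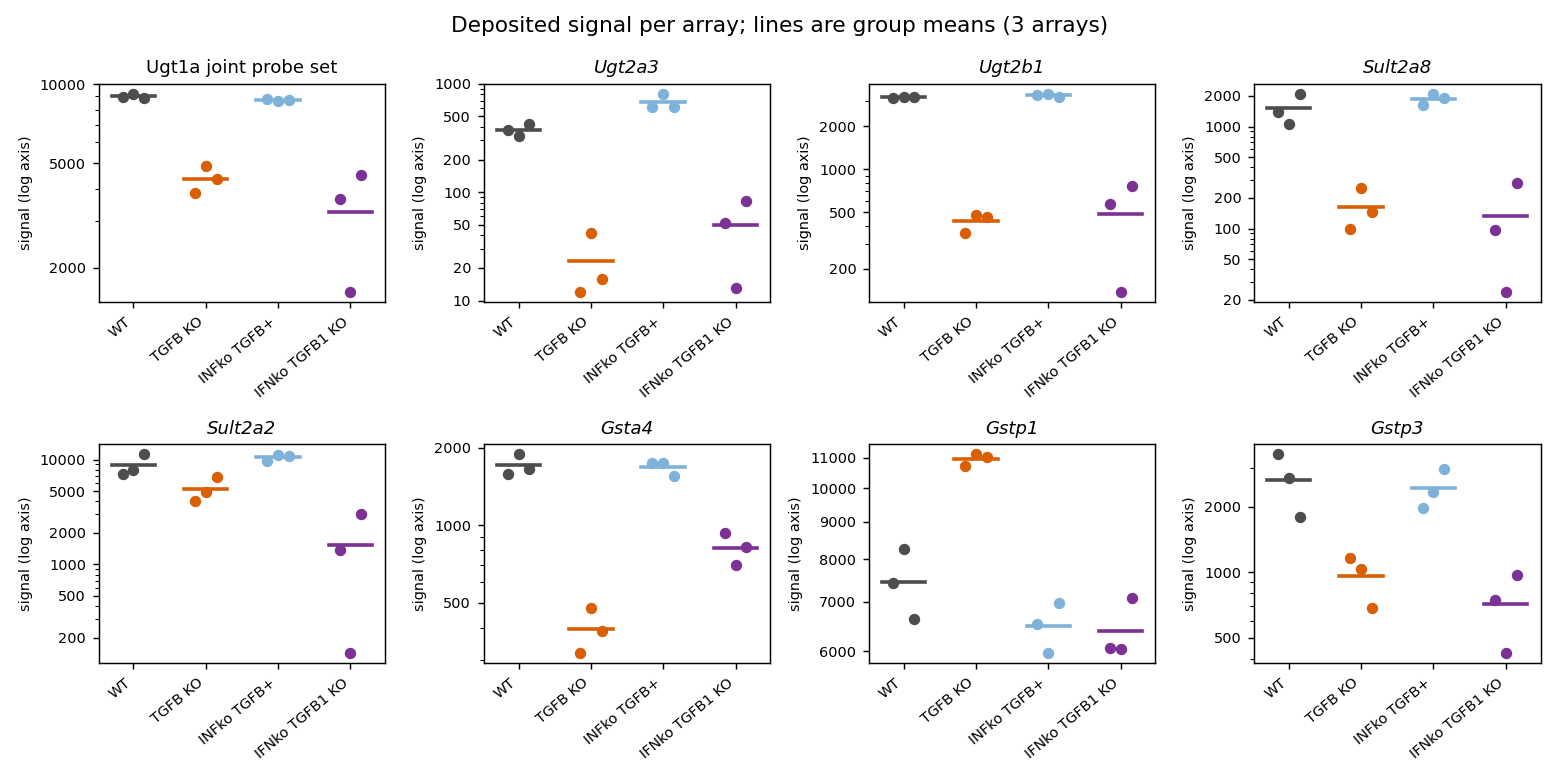
Deposited signal on each array (vertical log axis, arbitrary units; points are arrays and short lines are means of 3) for 7 genes and for 1 shared Ugt1a probe set, by group on the horizontal axis. Ugt1a, Ugt2a3, Ugt2b1 and Sult2a8 drop in both Tgfb1-deficient groups, Sult2a2 is lowest in IFNko TGFB1 KO, Gsta4 is lowest in TGFB KO, and Gstp1 is highest in TGFB KO while Gstp3 is low in both Tgfb1-deficient groups.

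Of the glutathione transferases, 9 of 18 fell and 1 rose in TGFB KO, and 9 of 18 fell in IFNko TGFB1 KO. In the alpha class, which includes the enzymes that detoxify aflatoxin epoxide and hydroxyalkenals, 3 of 3 tested genes were called lower in both comparisons. A probe set shared by Gsta1, Gsta2 and Gm3776 did not pass in TGFB KO (-0.96, adjusted p = 0.0873, limma over 27022 probe sets). It was lower in IFNko TGFB1 KO (-1.49, adjusted p = 0.0131, limma). Gsta3, the aflatoxin epoxide transferase of mouse liver, read 5265, 4797 and 7282 in WT, 515, 1454 and 1099 in TGFB KO, 7510.4, 7629.9 and 7378 in INFko TGFB+ and 1866, 678 and 2406 in IFNko TGFB1 KO. Its log2 fold changes were -2.53 ± 0.47 (SE; adjusted p = 0.00256) and -2.28 ± 0.47 (SE; adjusted p = 0.00442), and a second Gsta3 probe set gave -2.87 and -2.38. Without IFNko TGFB1 KO 2 the change of Gsta3 in the second comparison was -1.70. The Gsta3 promoter window is given for its match to both the C/EBP-like motif and the antioxidant response element core TGACNNNGC (chr1:21240335-21240634, plus strand, GRCm38.p6; capitals mark the matches, 137 and 121 bases before the start, which share no bases).
Gsta3: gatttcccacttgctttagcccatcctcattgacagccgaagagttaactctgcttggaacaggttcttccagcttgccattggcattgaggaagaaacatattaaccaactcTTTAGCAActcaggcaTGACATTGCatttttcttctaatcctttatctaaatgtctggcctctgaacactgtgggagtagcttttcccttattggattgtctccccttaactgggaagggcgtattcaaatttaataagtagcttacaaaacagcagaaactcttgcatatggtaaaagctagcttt
The RefSeq gene record of Gsta3 begins upstream of the start used here, at base 21240565 inside this window. The antioxidant response element core was found in 6.12% of the 49 windows of the Ugt, Sult and Gst genes (Gsta3, Gstm5 and Gstm7) and in 12.4% of all windows. Of the other motifs searched on both strands, the STAT-like TTCNNNGAA lay in 4.08% (Gstm6 and Sult3a1) against 8.3% of all windows. The HNF1-like GTTAATNAT lay in 1 of the 49 windows (2.04%, Sult1d1) against 0.801%. The HNF4-like CAAAGTCCA also lay in 1 of the 49 (2.04%, Sult1b1), against 0.475%. A share that rests on 1 window does not show that either motif is more frequent here.

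Gsta4, which clears the lipid peroxidation product hydroxynonenal, fell in both Tgfb1-deficient groups and reached its lowest signals in TGFB KO. It read 1582, 1889 and 1659.8 in WT, 319, 476 and 389 in TGFB KO, 1747, 1755 and 1555 in INFko TGFB+ and 931, 704 and 823 in IFNko TGFB1 KO. The 3 levels, both controls, then IFNko TGFB1 KO, then TGFB KO, did not overlap. Gsta4 changed by -2.07 ± 0.20 (SE; adjusted p = 2.78e-05) in TGFB KO against WT and by -0.89 ± 0.20 (SE; adjusted p = 0.00683) in IFNko TGFB1 KO against INFko TGFB+, and it was higher in IFNko TGFB1 KO than in TGFB KO (1.13 ± 0.20, adjusted p = 0.00741). That last call was lost after median centring (adjusted p = 0.0689) and with only these groups in the fit (adjusted p = 0.0828). The test of the difference between the 2 Tgfb1 effects gave 1.18 ± 0.28 (SE; adjusted p = 0.0892), with a 95% interval of 0.57 to 1.79, and did not pass. With a pseudocount of 64 it passed (1.09, adjusted p = 0.0398). Gsta2 fell in both comparisons (-1.51 ± 0.44, adjusted p = 0.029, and -2.73 ± 0.44, adjusted p = 0.0013), but the first call was lost without any 1 of the 6 arrays, at adjusted p of 0.0628 to 0.0807, and with a pseudocount of 1 (adjusted p = 0.153), and the second was -2.03 without IFNko TGFB1 KO 2.

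In the mu class, Gstm4 fell in both comparisons (-1.0 ± 0.21, adjusted p = 0.00596, and -0.99 ± 0.21, adjusted p = 0.00595), and Gstm7 too (-0.79 ± 0.25, adjusted p = 0.0369, and -1.72 ± 0.25, adjusted p = 0.000615). The TGFB KO call for Gstm7 was lost in 9 of 17 alternatives, among them leaving out WT 2, WT 3 or any TGFB KO array (adjusted p = 0.0621 to 0.108), and a second Gstm7 probe set gave 0.13 and -0.73 and passed in neither. Gstm5 fell in TGFB KO (-0.83 ± 0.18, adjusted p = 0.00698), a call lost after median centring (adjusted p = 0.106), and gave -0.46 in IFNko TGFB1 KO (adjusted p = 0.0901). Gstm1, the mu class gene with the highest mean level, read 1604, 1978 and 2004 in WT, 1073, 1617 and 1093 in TGFB KO, 1946, 2003 and 1678 in INFko TGFB+ and 1360.4, 779 and 1511 in IFNko TGFB1 KO. Its fold changes of -0.52 and -0.51 passed in neither comparison (adjusted p = 0.176 and 0.184), with 95% intervals of -1.10 to 0.05 and -1.08 to 0.07. Of its 3 other probe sets, 1 that also carries the suffix of probes that may bind several transcripts was lower in IFNko TGFB1 KO (-1.10, adjusted p = 0.0255) and gave -0.29 in TGFB KO (adjusted p = 0.566). The other two passed in neither comparison, and after median centring the Gstm1 change in IFNko TGFB1 KO also passed (-0.91, adjusted p = 0.0312). Gstm2, Gstm3 and Gstm6 passed in neither, at 0.14, 0.31 and -0.16 in TGFB KO and -0.66, 0.12 and -1.02 in IFNko TGFB1 KO, where Gstm6 passed without array IFNko TGFB1 KO 3 (-1.22, adjusted p = 0.0498). The 7 mu genes lie side by side on chromosome 3 and are close in sequence, and the Gstm1 and Gstm3 probe sets carry the suffix that Affymetrix gives to probes that may bind more than 1 transcript. How these genes share signal was not tested.

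The 2 pi class genes on chromosome 19 moved in opposite directions in TGFB KO. Gstp1, which in mouse liver conjugates a wide range of electrophiles, read 7430.3, 8261 and 6630.3 in WT, 10719, 11118 and 11037 in TGFB KO, 6540.3, 5964 and 6972 in INFko TGFB+ and 6054, 6038 and 7089 in IFNko TGFB1 KO. All 3 TGFB KO arrays were above the 9 others, which overlapped among themselves. It rose by 0.54 ± 0.15 on the log2 scale in TGFB KO (SE; adjusted p = 0.0226), a 1.46-fold difference, and gave 0.06 ± 0.15 (SE; adjusted p = 0.801) in IFNko TGFB1 KO against INFko TGFB+. IFNko TGFB1 KO was lower than TGFB KO (-0.71 ± 0.15, adjusted p = 0.021), and the difference between the 2 Tgfb1 effects did not pass (-0.48 ± 0.21, adjusted p = 0.407). The rise in TGFB KO was lost without WT 3, TGFB KO 1 or TGFB KO 2 (adjusted p = 0.0742, 0.0543 and 0.0779), after median centring (adjusted p = 0.08), with no filter (adjusted p = 0.0501) and with only these groups in the fit (adjusted p = 0.0752). Gstp1 has a near-identical copy, so its signal may hold both. Gstp3, with 1 coding gene between it and Gstp1, read 3477, 2709 and 1788 in WT, 1159, 1033 and 683 in TGFB KO, 1974, 2345 and 2991 in INFko TGFB+ and 744, 426 and 972 in IFNko TGFB1 KO. No Tgfb1-deficient array reached a control array, and the log2 fold changes were -1.37 ± 0.35 (SE; adjusted p = 0.0146) and -1.67 ± 0.35 (SE; adjusted p = 0.00494). The first call was lost without WT 1 or TGFB KO 3 (adjusted p = 0.0583 and 0.0597). Both windows are shown since these neighbours differed in direction, for Gstp1 at chr19:4037863-4038162 with no match to any of the 5 motifs, and for Gstp3 at chr19:4059398-4059697 with the C/EBP-like match in capitals 193 bases before the start (both minus strand, GRCm38.p6).
Gstp1: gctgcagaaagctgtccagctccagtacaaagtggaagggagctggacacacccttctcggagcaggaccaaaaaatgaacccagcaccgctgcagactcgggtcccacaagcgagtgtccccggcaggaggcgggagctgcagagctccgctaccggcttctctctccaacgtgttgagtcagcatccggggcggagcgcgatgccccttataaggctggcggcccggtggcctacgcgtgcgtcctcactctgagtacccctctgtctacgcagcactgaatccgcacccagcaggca
Gstp3: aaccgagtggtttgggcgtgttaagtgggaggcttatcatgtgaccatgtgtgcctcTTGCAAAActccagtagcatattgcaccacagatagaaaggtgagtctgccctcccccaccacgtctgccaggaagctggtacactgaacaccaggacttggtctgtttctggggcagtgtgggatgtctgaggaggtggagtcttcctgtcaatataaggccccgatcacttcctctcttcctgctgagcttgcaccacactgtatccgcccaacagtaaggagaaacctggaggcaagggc
An absent match says only that these letters are not in this window. The RefSeq gene record of Gstp3 reaches upstream of the start used for its window, to base 4059605 inside it.

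Gstz1, the maleylacetoacetate isomerase of tyrosine breakdown, read 3825, 3586 and 4517 in WT, 1115, 1636 and 2135 in TGFB KO, 4932, 4619 and 4929 in INFko TGFB+ and 1848, 907 and 2556 in IFNko TGFB1 KO. The 6 Tgfb1-deficient arrays all lay below the 6 control arrays, with log2 fold changes of -1.24 ± 0.34 (SE; adjusted p = 0.0209) and -1.40 ± 0.34 (SE; adjusted p = 0.0107). The call in TGFB KO was lost without WT 1, WT 3 or TGFB KO 1 (adjusted p = 0.0536, 0.0619 and 0.0878). Gstk1, a mitochondrial and peroxisomal transferase, read 2266, 2252 and 2113 in WT, 1107, 949 and 1306 in TGFB KO, 2247, 2514 and 2153 in INFko TGFB+ and 777, 553 and 1148 in IFNko TGFB1 KO. It fell by 0.93 and 1.39 on the log2 scale (adjusted p = 0.0144 and 0.00171), and the first call was lost without TGFB KO 2 (adjusted p = 0.0568). Gstt1, which acts on small halogenated molecules, read 2029.7, 2695 and 2576 in WT, 1332, 1684 and 1400.5 in TGFB KO, 2852, 2797 and 2834 in INFko TGFB+ and 1363, 969.9 and 1959.6 in IFNko TGFB1 KO. It passed in IFNko TGFB1 KO (-0.84 ± 0.22, adjusted p = 0.0161), where the call was lost without INFko TGFB+ 1 (adjusted p = 0.0523) and with only the 2 groups in the fit (adjusted p = 0.0562), and not in TGFB KO (-0.65 ± 0.22, adjusted p = 0.0532). Gstt2 and Gstt3 passed in neither comparison, at 0.23 and 0.24 in TGFB KO and 0.14 and -0.62 in IFNko TGFB1 KO, and Gstt4 lay below the filter. Gsto1, which reduces dehydroascorbate, read 470.4, 542 and 655 in WT, 528, 569.7 and 663 in TGFB KO, 494, 586 and 534 in INFko TGFB+ and 451, 839.8 and 548 in IFNko TGFB1 KO and passed in neither comparison (0.06 and 0.20, with 95% intervals of -0.41 to 0.53 and -0.28 to 0.67). Gsto2 lay below the filter.

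The question of whether interferon gamma changes these enzymes can be put in 3 ways. With Tgfb1 present, INFko TGFB+ against WT gave 0 calls among the 33 genes (limma; smallest adjusted p = 0.91) and 1 at an unadjusted p under 0.05, Gstm2 (0.69 ± 0.30), where 0% of all genes were called and 650 of 12760 had an unadjusted p under 0.05. The median of the 33 was 0.23, and 23 of 33 lay above 0. With Tgfb1 absent, IFNko TGFB1 KO against TGFB KO gave 1 lower call, Gstp1, and 1 higher call, Gsta4, where 5.36% of all genes were called (2.82% lower and 2.54% higher). The median of the 33 was -0.10, and 15 of 33 lay above 0. That median turned to 0.15 without IFNko TGFB1 KO 2 and stood at 0.02 with array weights and 0.0039 with no filter. Sult2a2 read lower on all 3 IFNko TGFB1 KO arrays than on any TGFB KO array, at -2.46 (adjusted p = 0.118), and the difference was -1.13 without IFNko TGFB1 KO 2 (adjusted p = 0.053). This comparison depended on single arrays. Without IFNko TGFB1 KO 2 there were 5 calls, with Sult1b1, Ugt2b1 and Ugt2b5 added at 1.12, 0.69 and 0.84 (adjusted p = 0.0394, 0.0442 and 0.0296). Without IFNko TGFB1 KO 3 there were 4 calls, with Sult2a2 and Gstm7 added at -3.36 and -0.94 (adjusted p = 0.0273 and 0.0222). Without TGFB KO 1 or TGFB KO 2 the Gstp1 call was lost (adjusted p = 0.0636 and 0.085).

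The direct test of the difference between the 2 Tgfb1 effects gave 0 calls among the 33 genes (limma; smallest adjusted p = 0.0892) and 4 at an unadjusted p under 0.05, Gsta4, Gstm7, Sult2a2 and Gstp1, where 0.87% of all genes were called (0.627% lower and 0.243% higher). The median difference was -0.22. It was 0.05 without IFNko TGFB1 KO 2, which turned its sign, and -0.49 without IFNko TGFB1 KO 3. The genes that passed in only 1 of the 2 comparisons, Gstm5 and Sult1c2 in TGFB KO and Gstt1, Sult1a1, Sult2a2, Ugt2b34 and Ugt3a1 in IFNko TGFB1 KO, are therefore not shown to differ between them. The intervals were wide: for Ugt2a3 the difference was -0.35 with a 95% interval of -1.55 to 0.86, and for Ugt2b1 -0.12 with -1.62 to 1.39.

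The genes that supply the donor molecules were mixed in direction. Beside the counts in this list and those below stand 24.1% of all genes called in TGFB KO (11.9% lower and 12.2% higher). In IFNko TGFB1 KO 25.8% of all genes were called (13.1% lower and 12.7% higher). Of 15 tested cofactor genes, 6 fell and 2 rose in TGFB KO, and 8 fell and 2 rose in IFNko TGFB1 KO, with medians of -0.69 and -1.01. Papss2, which makes the sulfate donor PAPS, fell (-1.24 ± 0.22, adjusted p = 0.00227, and -1.53 ± 0.22, adjusted p = 0.000706). Ggct of the glutathione cycle fell in both (-1.28 and -1.05), and Cth, which makes cysteine from cystathionine, fell in IFNko TGFB1 KO (-2.11). Gclc, the catalytic subunit that starts glutathione synthesis, also fell (-1.54 and -1.97), and was chosen here after its values were seen. Ugdh, which makes UDP-glucuronate, rose in both comparisons (1.17 ± 0.21, adjusted p = 0.00211, and 1.12 ± 0.21, adjusted p = 0.00271), against the direction of the Ugt genes that use its product.

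Of 8 tested conjugate transporters, 2 fell and 2 rose in TGFB KO, and 1 fell and 3 rose in IFNko TGFB1 KO. The export pump Abcc1 rose (1.68 and 1.62), while the hepatic Abcc6 fell (-1.88 and -1.97). Abcb1a fell in TGFB KO (-1.20), and Abcc3 and Abcc5 rose in IFNko TGFB1 KO (1.35 and 1.21). Of 18 other conjugating and deconjugating enzymes, 2 fell and 3 rose in TGFB KO, and 8 fell and 3 rose in IFNko TGFB1 KO. These are 5 of 18 in TGFB KO, near the 24.1% of all genes called. In IFNko TGFB1 KO they are 11 of 18, beside 25.8%. The nicotinamide methyltransferase Nnmt rose in TGFB KO (2.90 ± 0.50, adjusted p = 0.00159), as did the lysosomal sulfatase Arsa (0.81). Gusb, the lysosomal enzyme that removes glucuronic acid, rose in both (1.10 ± 0.24, adjusted p = 0.00688, and 1.47 ± 0.24, adjusted p = 0.00138). The indolethylamine methyltransferase Inmt fell in IFNko TGFB1 KO (-3.85), and so did the epoxide hydrolase Ephx2 (-1.46). In this list 1 enzyme was lower and 2 were higher in IFNko TGFB1 KO than in TGFB KO, namely Arsa (-0.63), Mgst3 (0.98) and Arsb (0.88). Over all genes tested, 5.36% were called in that comparison.

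Of 16 tested receptors and transcription factors that control conjugation genes, 5 fell in TGFB KO and 10 in IFNko TGFB1 KO, and 0 rose in either. In the difference between the comparisons 0 were called (limma), with 1 at an unadjusted p under 0.05. Ppara, the fatty acid sensing receptor, fell (-1.69 ± 0.32, adjusted p = 0.00297, and -2.12 ± 0.32, adjusted p = 0.000864), and so did the liver factor Foxa2 (-1.63 ± 0.33, adjusted p = 0.00411, and -2.54 ± 0.33, adjusted p = 0.000336) and the bile acid receptor Nr1h4 (-0.94 ± 0.20, adjusted p = 0.00597, and -1.75 ± 0.20, adjusted p = 0.000178). Of 14 tested targets of the factor NRF2 outside these families, 5 fell and 5 rose in TGFB KO, and 6 fell and 5 rose in IFNko TGFB1 KO. The heme oxygenase Hmox1 rose (3.41 ± 0.32, adjusted p = 2.61e-05, and 2.47 ± 0.32, adjusted p = 0.000351) and Pgd of the pentose phosphate pathway rose (0.86 and 0.99), while the malic enzyme Me1 fell (-1.41 and -1.12). Gclc, Gclm and Slc7a11 were named both in this list and in the cofactor list. Ephx1 was named both in this list and among the other conjugating and deconjugating enzymes. Hnf4a was named both among the receptors and transcription factors and among the hepatocyte markers.

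**Figure D4:**
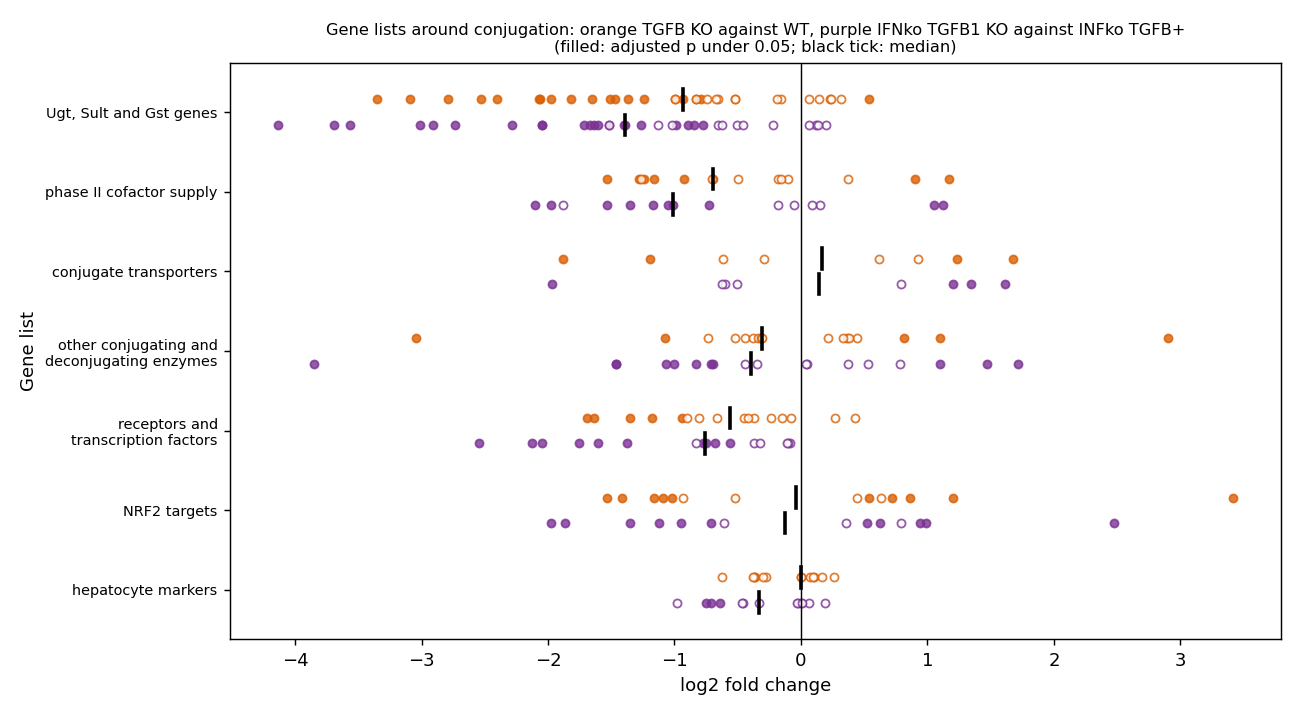
log2 fold change (horizontal axis) of each tested gene of the Ugt, Sult and Gst families, of 5 related gene lists and of the hepatocyte markers (vertical axis), in orange for TGFB KO against WT and in purple for IFNko TGFB1 KO against INFko TGFB+, with filled points where the adjusted p was under 0.05 and black ticks at the medians. The conjugation enzymes lie to the left with medians of -0.93 and -1.39, and the hepatocyte markers lie around 0 and -0.33.

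In whole liver, fewer cells of a type and less RNA per cell cannot be told apart, and markers of other cells moved with the fall of these enzymes. Of 13 tested hepatocyte markers, 0 passed in TGFB KO (limma; 0 at an unadjusted p under 0.05) and 3 fell in IFNko TGFB1 KO (Apoh, Hnf4a and Vtn), with median log2 fold changes near 0 (-0.0015) and of -0.33. Their summed signal was 270972 to 274937 in WT, 202020.0 to 239187 in TGFB KO, 233114 to 283680.0 in INFko TGFB+ and 154787 to 236448 in IFNko TGFB1 KO, and the lowest sum was that of array IFNko TGFB1 KO 2. By this sum every TGFB KO array lay below every WT array, although the median fold change was near 0. The sums of IFNko TGFB1 KO and INFko TGFB+ overlapped. The 6 tested Ugt2 genes had medians of -1.90 and -2.04 in the same comparisons. Of 11 tested T cell markers, 10 rose in TGFB KO and 11 in IFNko TGFB1 KO, and the controls read near background (Cd3e at means of 16.7 in WT and 8.62 in INFko TGFB+), with summed signals of 202 to 296 in WT, 969 to 1278 in TGFB KO, 169.8 to 277 in INFko TGFB+ and 2648 to 4703 in IFNko TGFB1 KO. All 12 macrophage markers rose in both, with sums of 8234 to 10451, 48458 to 52344, 8265 to 8433 and 34303 to 48337 in the same order of groups. Of 8 neutrophil and monocyte markers, 8 and 6 rose. Their part in the fall of the enzymes was not tested.

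Gsta4 and Gstp1 were the 2 genes called between the 2 Tgfb1-deficient groups, 6.06% of the 33 where 5.36% of all genes were called. Both calls were lost with only these 2 groups in the fit. In the main fit neither gene passed the test of the difference between the Tgfb1 effects. Between the same groups, 6 of 11 T cell, 7 of 10 stellate cell and 2 of 10 endothelial markers were higher in IFNko TGFB1 KO. In that group 2 of 8 neutrophil and monocyte markers were lower. Of the 10 stellate cell markers, 3 fell in TGFB KO against WT and 3 rose in IFNko TGFB1 KO against INFko TGFB+. The difference between these effects was called higher for 4 of the 10, where 0.87% of all genes were called. The stellate sums were 11467 to 13695 in TGFB KO and 21177 to 30667 in IFNko TGFB1 KO, and the part of these cells in the values of Gsta4 and Gstp1 was not tested. Of 6 cholangiocyte markers 0 passed in either comparison (limma), with 2 and 0 at an unadjusted p under 0.05. Of 10 endothelial markers 2 fell and 2 rose in TGFB KO and 3 rose in IFNko TGFB1 KO. Over all genes tested, 24.1% were called in TGFB KO against WT and 25.8% in IFNko TGFB1 KO against INFko TGFB+. Of 7 erythroid markers 1 rose in TGFB KO and 0 passed in IFNko TGFB1 KO (limma; 0 at an unadjusted p under 0.05). Of 10 listed markers of intestine, pancreas and fat, 6 had a probe set annotated to no other gene. Of these 6 only Fabp2 and Cela1 passed the filter, and both fell in each comparison.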

How the data were processed

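Liver RNA from 12 BALB/c mice (3 per group, grouped by the sample titles) was labelled by the one-cycle Affymetrix protocol, per the labels. The deposited table holds the authors' linear signal intensity for 45101 probe sets; a trimmed mean (2% off each end) of 150.001 on every array shows that arrays were scaled to a common level. How the signal was computed is not given in the sources used here. The number of arrays limits precision. No value column was left unmapped. Probe sets were named from the platform annotation (34958 with 1 symbol, 932 with several, 9211 with none; 64 controls were left out), and 34754 were matched to RefSeq by gene ID. Intensities became log2(signal + 16), were quantile normalized and filtered at the 40th percentile of the mean (5.25 on the log2 scale), with the highest probe set kept per gene. Limma 3.58.1 in R 4.3.3 fitted 1 mean per group over 12 arrays (8 residual and 3.44 prior degrees of freedom). For 5 contrasts, two-sided p-values were adjusted over 12760 genes (Benjamini-Hochberg; threshold 0.05). Other probe sets of these genes were fitted over 27022 probe sets. Each p-value weighs a group difference against a spread between mice that was pooled over the 4 groups and moderated over all genes.

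The rule and the lists of cofactor, transporter, receptor and marker genes were chosen with earlier results of these data known. Signals of every array are given for the 4 largest falls and rises without overlap per contrast, for the highest gene of each family, and for Tgfb1 and Ifng. They are also given for Ugt2b5, Sult1b1, Sult1c2, Sult2b1, Gstp3 and the shared Ugt1a probe set, which were chosen after their values were seen. Of each list up to 3 genes with the smallest p per contrast are named. On simulated data for 12760 genes, 43% of 2-fold and 83% of 4-fold changes were recovered for TGFB KO against WT, and 36% and 88% for IFNko TGFB1 KO against INFko TGFB+. Only 100 genes of each size were changed, with independent normal noise, and 7 and 6 unchanged genes were called. In the data 24.1% and 25.8% of genes were called, so these rates do not give the recovery there. Alternatives were the scaling, pseudocount, filter, choice of probe set, array weights, replicate or sex as a block, the groups in the fit, and leaving out each array.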

Additional observations from a re-analysis of the deposited data

How the results depend on the processing

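Of the calls among the 33 genes, 8 of 19 in TGFB KO against WT (Gsta3, Gsta4, Gstm4, Sult1b1, Sult2a8, Ugt2a3, Ugt2b1 and Ugt2b5) and 16 of 21 in IFNko TGFB1 KO against INFko TGFB+ were kept in every alternative run, and no named gene changed sign once called. The count of calls ran from 16 to 21 and from 19 to 24 over the alternatives that kept all 12 arrays or both groups. Leaving out 1 array gave 12 to 16 and 18 to 24 calls, and 0 for INFko TGFB+ against WT and for the difference of the Tgfb1 effects. For that difference a pseudocount of 64 gave 1 call, Gsta4. For IFNko TGFB1 KO against TGFB KO, leaving out 1 array gave 1 to 5 calls, and fitting only these 2 groups gave 0, with adjusted p of 0.0828 for Gsta4 and 0.13 for Gstp1; the cause was not tested. Median centring moved the median of all genes by -0.14 in IFNko TGFB1 KO against INFko TGFB+, by -0.26 in the difference and by -0.16 in IFNko TGFB1 KO against TGFB KO. It gave 16 lower and 0 higher calls among the 33 genes in TGFB KO and 24 lower in IFNko TGFB1 KO, and the Gsta4 call between the deficient groups was lost (adjusted p = 0.0689). The share of all calls that were higher was then 61.9%, 34.6% and 20.5% in the 3 comparisons with calls between groups, against 50.5%, 49.2% and 47.4%.

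With the replicate number as a block there were 20, 22, 0, 2 and 0 calls in TGFB KO against WT, IFNko TGFB1 KO against INFko TGFB+, the difference, IFNko TGFB1 KO against TGFB KO and INFko TGFB+ against WT. Deviations from the group mean had a median correlation of 0.0013 (from -0.08 to 0.34) over 18 pairs with the same number. Over 36 pairs with other numbers the median was 0.0004. Between WT and TGFB KO the same-number pairs gave 0.098, 0.065 and 0.34, and the others ran from -0.23 to 0.14. So few pairs cannot decide whether the numbers pair the mice. With sex as a block the counts were 19, 22, 0, 2 and 0. Probe sets near background, as for the 10 genes below the filter, limit what can be said of them.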

Other observations

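In both Tgfb1-deficient groups, the array with the lowest enzyme levels came from the 1 mouse read as female from Xist and Eif2s3y. Array TGFB KO 1 held the lowest value of its group for 21 of the 33 genes, and array IFNko TGFB1 KO 2 for 29. These counts were not made over all genes, and genes that move together on an array do not count separately. The medians of the 33 genes on the 3 TGFB KO arrays were close, at -1.06, -0.85 and -0.83 relative to the WT mean. The female arrays of the groups with Tgfb1, WT 2 and INFko TGFB+ 1, held the lowest value of their group for 12 and 9 of the 33 genes. With 1 female mouse per group, sex cannot be told apart from the single mouse. Array IFNko TGFB1 KO 2 also had the lowest hepatocyte marker sum of the 12 arrays (154787). Its T cell, neutrophil and monocyte, stellate, endothelial and cholangiocyte marker sums were the highest of the 12 (4703, 38259, 30667, 8227 and 2892). Its macrophage and erythroid sums (48337 and 6440) were not the highest. The part of this mix of cells in its enzyme levels was not tested.

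On array IFNko TGFB1 KO 2 the Gsta2 probe set read 5.0, the lowest of the 12 arrays. The probe set shared by Gsta1, Gsta2 and Gm3776 read 112, 296 and 75.5 on the 3 IFNko TGFB1 KO arrays, where the same array was the highest. Its log2 fold change was -0.96 in TGFB KO against WT (adjusted p = 0.0873) and -1.49 in IFNko TGFB1 KO against INFko TGFB+ (adjusted p = 0.0131).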
